A study of Homo sapiens with 6 samples.

Results

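The S100 genes encode small calcium-binding proteins. Expression of 10 of them (S100P, S100A1, S100A2, S100A4, S100A6, S100A8, S100A9, S100A10, S100A11 and S100A14) was read on arrays of ovarian cancer cells with and without an shRNA against SHMT1, the cytosolic serine hydroxymethyltransferase. The members were taken by gene symbol, with every probe the platform annotation gives them, which was 12 of 47321 probes and covered 10 of the 21 S100 symbols on the array. The set was chosen by the intensity of S100P, which fell with both SHMT1 shRNAs on these same arrays, so the S100P values against the control are a description, and the question was whether that fall was shared in the family. PEO4, the cells used, is a cell line derived from a high-grade serous tumour of the ovary and was grown in RPMI medium with fetal bovine serum. The cells carried a nonspecific shRNA (NS), SHMT1 shRNA F11 or SHMT1 shRNA F12, with 2 arrays for each of the 3 groups. The 8 epithelial and Mullerian markers checked (PAX8, WT1, EPCAM, KRT7, KRT8, KRT18, MUC16 and CDH1) were above background on all 6 arrays.

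S100 proteins carry a pair of EF-hands, the helix-loop-helix motif that holds calcium. Most work as dimers that open a binding face for a partner protein when calcium rises. Inside cells they touch annexins, the cytoskeleton and membrane scaffolds. Several are also released and bind the receptors RAGE (AGER) and TLR4, and in carcinomas several members are known as markers of migrating cells. The S100A genes sit together on chromosome 1, where 9 of the 10 members lie, and S100P lies alone on chromosome 4.

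The Illumina HumanHT-12 array reports each transcript as the brightness of a probe in a single colour, and the values below are the authors' normalized intensities. The background was estimated to lie at 85.5, and intensities over 91.6 counted as above it. Probes over that limit on at least 2 arrays were tested, 23039 in all, and among them 11 of the 12 S100 probes, each of which was over the limit on all 6 arrays. The S100A8 probe was not tested. Since intensity includes the background, the fold changes of dim probes are understated. At its brightest probe SHMT1 itself read 542 and 544 with NS, 291 and 342 with F11 and 434 and 442 with F12. Every SHMT1 shRNA array was dimmer than NS at that probe, and the fall passed with F11 (adjusted p = 0.00535 from limma) but not with F12 (adjusted p = 0.213). SHMT1 was also higher there with F12 than with F11, by 0.47 on the log2 scale (adjusted p = 0.0197 from limma), a call lost without either F12 array. The F11 pass was lost without NS replicate 1 or NS replicate 2 (adjusted p from 0.0543 to 0.0585). The 2 dimmer SHMT1 probes were called in no comparison. Nothing in the labels says that the 2 arrays of a group came from separate cultures, so the p-values speak for the spread among these arrays alone, and that spread may be technical.

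The start regions of 4 members are shown here because the results turn on them. S100P and S100A9 had their lower signals under F12, S100P under F11 too, and S100A10 and S100A11 had their lower signals under F11. Each line gives 250 bases before and 50 after the transcription start in RefSeq (GRCh38.p14), read 5′ to 3′. Capitals mark a match to any of 5 motifs searched on both strands, the TATA box (TATAAA), AP-1 (TGANTCA), AP-2 (GCCNNNGGC), C/EBP (TTNNGCAA) and NF-kB (by its name, in its consensus form).
S100P (chr4:6693628-6693927, plus strand): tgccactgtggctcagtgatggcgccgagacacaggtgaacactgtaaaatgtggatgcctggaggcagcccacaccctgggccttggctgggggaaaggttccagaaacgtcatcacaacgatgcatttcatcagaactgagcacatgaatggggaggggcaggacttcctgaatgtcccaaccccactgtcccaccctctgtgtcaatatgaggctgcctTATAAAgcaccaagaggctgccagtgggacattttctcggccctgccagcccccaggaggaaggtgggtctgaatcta
S100A9 (chr1:153357604-153357903, plus strand): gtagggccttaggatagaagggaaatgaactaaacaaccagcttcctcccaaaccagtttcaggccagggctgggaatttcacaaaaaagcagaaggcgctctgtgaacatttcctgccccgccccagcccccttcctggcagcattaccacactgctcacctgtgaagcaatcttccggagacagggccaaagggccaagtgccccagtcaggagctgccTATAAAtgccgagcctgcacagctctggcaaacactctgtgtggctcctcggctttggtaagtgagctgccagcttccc
S100A10 (chr1:151993810-151994109, minus strand): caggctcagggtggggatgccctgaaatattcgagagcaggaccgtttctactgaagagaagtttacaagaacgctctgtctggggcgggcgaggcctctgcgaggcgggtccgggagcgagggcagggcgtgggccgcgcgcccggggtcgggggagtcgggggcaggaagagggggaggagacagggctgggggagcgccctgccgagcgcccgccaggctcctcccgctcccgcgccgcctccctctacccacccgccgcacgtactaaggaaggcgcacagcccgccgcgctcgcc
S100A11 (chr1:152036955-152037254, minus strand): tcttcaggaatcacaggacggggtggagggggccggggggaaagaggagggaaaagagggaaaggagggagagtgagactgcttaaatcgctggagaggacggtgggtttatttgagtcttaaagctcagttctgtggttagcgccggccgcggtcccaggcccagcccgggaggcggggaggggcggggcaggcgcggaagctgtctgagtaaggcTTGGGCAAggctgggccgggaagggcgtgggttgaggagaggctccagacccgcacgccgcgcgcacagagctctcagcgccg

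The windows of S100P and S100A9 each held a TATA box, which began 28 and 29 bases before the start. Those of S100A10 and S100A11 held none, and the single match there was a C/EBP motif in S100A11. TATAAA was found in 11.5% of 35116 RefSeq start regions of the same length and in 11 of 26 windows of S100 genes. It was in 5 of the 13 windows of members, in S100P, S100A9, S100A4 and S100A8. Of these, S100A4 was called in no comparison and S100A8 was not tested. The AP-2 motif, which 23.2% of start regions hold, was in none of the 4 windows shown above. It was in 4 of the 26, those of S100A2, S100A6, S100A7 and S100A7A. A match is a description of the letters and is no evidence of binding.

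S100P, a protein first found in placenta that binds the membrane linker ezrin and is abundant in many adenocarcinomas, had intensities of 192 and 201 with NS. With F11 its probe (ILMN_1801216) read 106 and 97.8, and with F12 it read 102 and 108. The F11 and F12 arrays were close to one another and all far below NS. The group means were 196.5 ± 6.34 (SD, n = 2 arrays), 102 ± 5.89 (SD, n = 2) and 105 ± 3.76 (SD, n = 2), or 51.9% of the NS level with F11 and 53.4% with F12. Over the background of 85.5 these means stood 111 higher with NS, 16.5 with F11 and 19.4 with F12, so the SHMT1 shRNA arrays were near the lower end of what the probe can measure. The log2 fold changes were -0.95 with F11 and -0.91 with F12, and -1.71 and -1.61 after a background correction by normexp. Of all tested probes, only 6 had a more negative averaged log2 fold change. These values chose the gene and carry no test. In RNA pooled from many cells, fewer cells with S100P and less S100P RNA per cell cannot be told apart. Between F12 and F11 the log2 difference of S100P was 0.04. It is a description too, since the gene was chosen for a fall with both shRNAs.

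**Figure D1:**
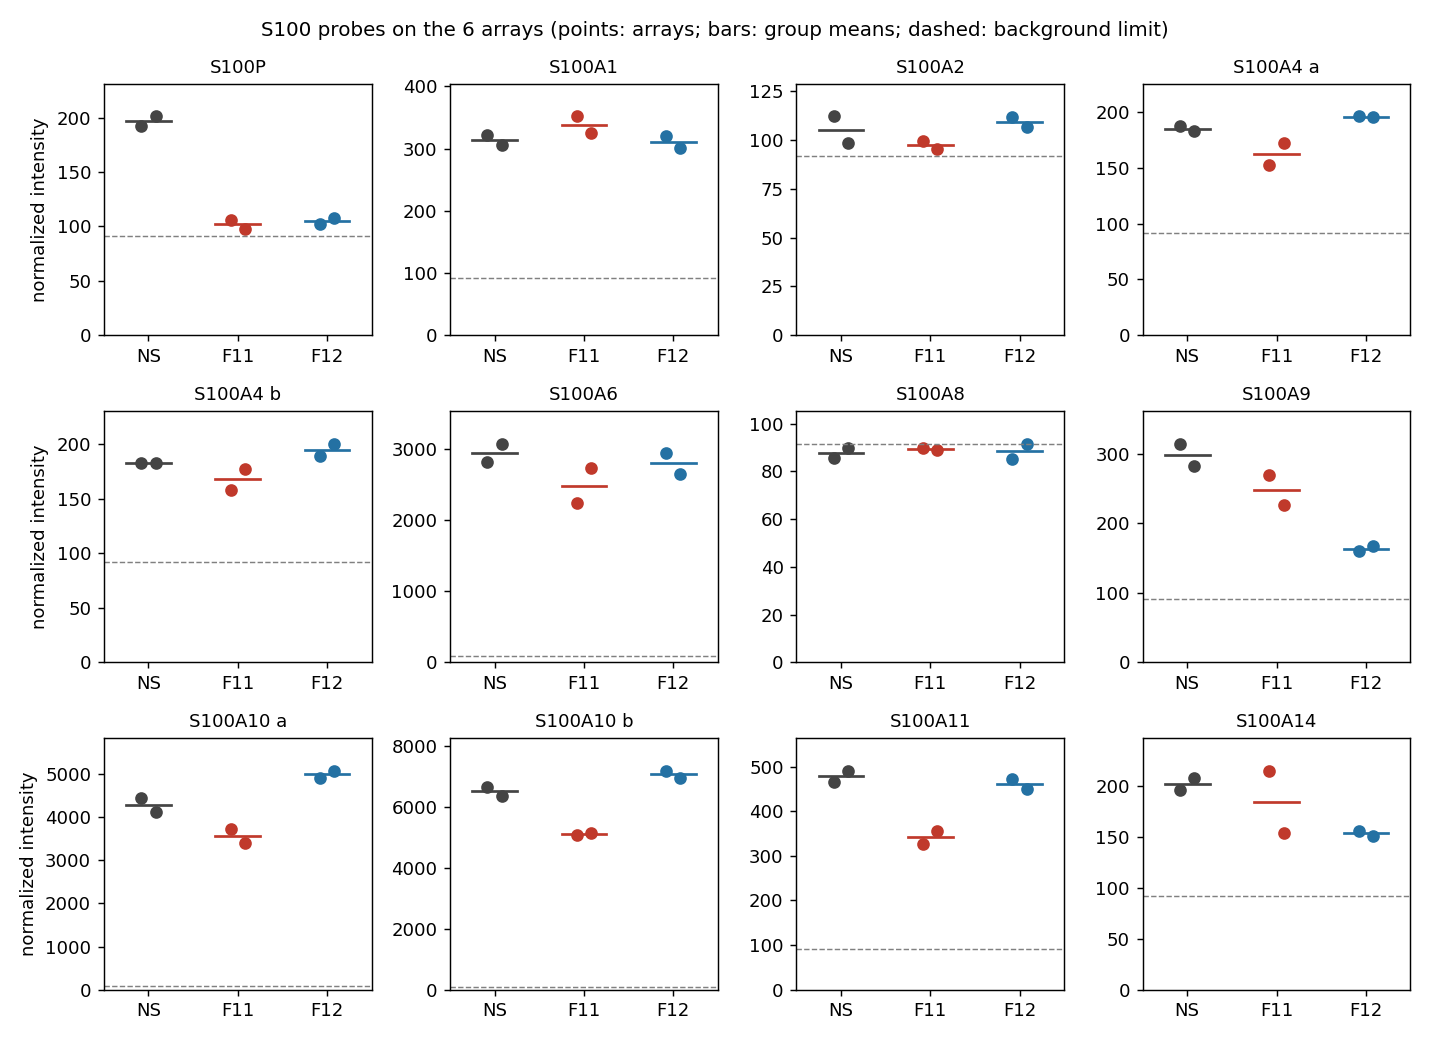
Normalized intensity (vertical axis, linear from 0, scaled per panel) of the 12 S100 probes in the NS, F11 and F12 groups; points are arrays, bars are group means of 2 arrays, and the dashed line is the background limit of 91.6. S100P is low in all 4 SHMT1 shRNA arrays, S100A9 is lowest with F12, S100A10 and S100A11 are lowest with F11, and S100A8 stays at background (a and b are the dimmer and brighter probes of S100A10, and the 2 probes of S100A4).

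S100A9 is the larger subunit of calprotectin, a protein of neutrophils and stressed epithelia that binds zinc and calcium. Among the tested members besides S100P, which carries no test against NS, S100A9 alone passed in the average of both shRNAs. Its probe (ILMN_1750974) read 314 and 282 with NS, 269 and 226 with F11, and 160 and 167 with F12. The 3 groups did not overlap, and ran from NS through F11 to F12. S100A9 fell with F12 to 54.9% of the NS level, a log2 change of -0.86 (95% interval -1.09 to -0.64, adjusted p = 0.0143 from limma). With F11 it had a log2 fold change of -0.27 (95% interval -0.50 to -0.05, adjusted p = 0.228) and did not pass. The difference between the shRNAs passed as well, at -0.59 (95% interval -0.81 to -0.37, adjusted p = 0.0163). Averaged over both shRNAs the log2 fold change was -0.57 (adjusted p = 0.0437).

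That made S100A9 the single probe called of the 10 tested S100 probes other than S100P, both in the average and with F12. In the average 0.464% of all tested probes were called, 0.334% lower and 0.13% higher, and with F12 0.625% were, 0.404% lower and 0.221% higher. The calls rest on few arrays. Once any NS or F12 array was dropped (replicate 1 or 2 of either), S100A9 missed the threshold with F12 and in the average. Its log2 fold change stayed between -0.94 and -0.79 with F12 and between -0.65 and -0.49 in the average. These fits leave 1 array in a group, and few probes of any gene passed in them. A call lost there, of S100A9 or of another gene with F12 or in the average, says little about that gene in particular. Treating F11 and F12 as 1 group of 4 arrays also ended the averaged call (adjusted p = 0.838).

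S100A8, the other calprotectin subunit, was not above background. Its intensities lay between 85.3 and 91.6, and 1 array, F12 replicate 2, reached just over the limit. No change of S100A8 can be read at that level. As S100A9 is also a leukocyte gene, 7 leukocyte markers were looked at beside it. PTPRC, LYZ, CSF3R and TYROBP were not above background on 2 or more arrays, and ITGAM, CD68 and CD14 were. The summed intensity of the 7 was 953 to 1066 with NS, 979 to 1082 with F11 and 867 to 886 with F12. ITGAM was lowest with F11, reading 97.4 and 99.4 with NS, 92.0 and 91.3 with F11 and 94.2 and 97.8 with F12. CD68 at its brightest probe had its highest mean with F11, reading 388 and 302, 462 and 348, and 300 and 295 in the same order. CD14, the lipopolysaccharide co-receptor, read 232 and 209 with NS, 178 and 193 with F11 and 155 and 139 with F12. Of these 3 markers, only CD14 had the same order of groups as S100A9. CD14 fell with F12 (log2 fold change -0.59, adjusted p = 0.0358, lost when any single NS or F12 array was left out). Of the 8 epithelial markers, 3 had a negative and 5 a positive log2 fold change with F12, with a median of 0.09. MUC16, the antigen CA125, was the marker called there, from 1389 and 1516 with NS to 1018 and 964 with F12 (-0.55, adjusted p = 0.0197, lost when any single NS or F12 array was left out and after normexp), with 1541 and 1588 under F11. In the average KRT7 was the marker called (-0.42, adjusted p = 0.0262, lost when any single NS or F12 array was left out, after normexp and with F11 and F12 as 1 group). CDH1 had a log2 fold change of 0.33 with F12 (adjusted p = 0.160). The part of these genes in the S100A9 result was not tested.

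S100A10 and S100A11 followed a different order, in which F11 was lowest. S100A10, also called p11, forms a tetramer with annexin A2 at the plasma membrane and does not depend on calcium for it. At the brighter of its 2 probes (ILMN_2046730) the intensities were 6640 and 6360 with NS, 5074 and 5143 with F11, and 7174 and 6945 with F12. Both F11 arrays lay below all others, and both F12 arrays lay above all others. The log2 fold change was -0.35 with F11 (95% interval -0.48 to -0.21, adjusted p = 0.0265 from limma), a fall to 78.6% of NS, and 0.12 with F12 (95% interval -0.01 to 0.25, adjusted p = 0.501).

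The dimmer S100A10 probe (ILMN_1796712) read 4447 and 4110 with NS, 3723 and 3390 with F11, and 4910.0 and 5074 with F12. The order of the groups was the same as at the brighter probe and they did not overlap. Neither fold change against NS passed there (-0.27 with F11 at 0.122 and 0.22 with F12 at 0.301, both adjusted p). Between the shRNAs, S100A10 was higher with F12 than with F11 at both probes, by 0.47 at the brighter (95% interval 0.33 to 0.60, adjusted p = 0.00527) and by 0.49 at the dimmer (95% interval 0.32 to 0.66, adjusted p = 0.0107).

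S100A11, a partner of annexin A1 that takes part in membrane repair and in growth control of epithelia, read 466 and 491 with NS, 327 and 356 with F11, and 472 and 450 with F12 (ILMN_1750101). The F11 arrays were clear of the rest, while the NS and F12 arrays overlapped. It fell with F11 to 71.3% of NS (log2 fold change -0.49, 95% interval -0.65 to -0.33, adjusted p = 0.0139 from limma). With F12 the log2 fold change was -0.05 (95% interval -0.21 to 0.11, adjusted p = 0.836), and F12 was higher than F11 by 0.43 (95% interval 0.28 to 0.59, adjusted p = 0.0135). RefSeq lists 10 S100A11 pseudogenes, so whether the probe reads only the gene is uncertain.

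With F11, 5 of the 8 epithelial markers had a negative and 3 a positive log2 fold change, with a median of -0.03. The 2 called, both lower, were keratins. CDH1 was at -0.03 and was not called. The keratin KRT8 read 1096 and 1228 with NS, 807 and 717 with F11, and 1165 and 1097 with F12, and fell with F11 (log2 fold change -0.61, adjusted p = 0.0141 from limma, lost when any single NS or F12 array was left out). KRT7 fell with F11 too (log2 fold change -0.59, adjusted p = 0.00555, lost without NS replicate 1). Both keratins and CDH1, which encodes E-cadherin, were higher with F12 than with F11. The differences were 0.57 for KRT8, 0.34 for KRT7 and 0.36 for CDH1 (adjusted p = 0.0114, 0.0237 and 0.0382 from limma). These calls were lost when either F12 array was left out. Those of KRT7 and CDH1 were also lost without F11 replicate 1, after normexp and under the intensity trend with robust estimation. MUC16 went the other way, at -0.66 for F12 against F11 (adjusted p = 0.00239), a call kept with every array left out in turn. The summed intensity of the 8 epithelial markers was 10957 to 11575 with NS, 10364 to 10905 with F11 and 11154 to 11703 with F12. The keratinocyte list summed to 1313 to 1411 with NS, 1118 to 1217 with F11 and 1337 to 1348.5 with F12, and the fibroblast list to 544 to 546, 561 to 571 and 553 to 563. Most of the keratinocyte sum was KRT10, with means of 883, 690 and 849 in the same order. SPRR1A had means of 142, 141 and 152, and KRT5, KRT14, KRT1 and IVL were not above background on 2 or more arrays. None of the 2 keratinocyte and 4 fibroblast genes tested was called by limma in any comparison, though 1 of each had an unadjusted p under 0.05 with F11, and no glial or melanocyte marker was tested. The part of the keratins in the S100A10 and S100A11 results was not tested.

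With F11, then, 2 of the 10 tested S100 probes other than S100P were called, both lower. Of all tested probes 2.57% were called with F11, 1.35% lower and 1.22% higher. Between F12 and F11, 4 of these 10 probes were called, 3 of them higher with F12 and 1 lower. Of all tested probes 5.84% were called there, 2.79% higher and 3.05% lower. The S100A10 call with F11 was not firm. It was lost on leaving out any of the 6 arrays (adjusted p from 0.0539 to 0.171), after the normexp correction (adjusted p = 0.171) and with only NS and F11 fitted (adjusted p = 0.0854). S100A11 with F11 missed the threshold once any NS or F12 array was dropped (adjusted p from 0.0537 to 0.116) and with only NS and F11 fitted (adjusted p = 0.0537). All 4 calls between the shRNAs, S100A9 included, depended on both F12 arrays, with adjusted p of 0.0573 to 0.145 when either was dropped.

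**Figure D2:**
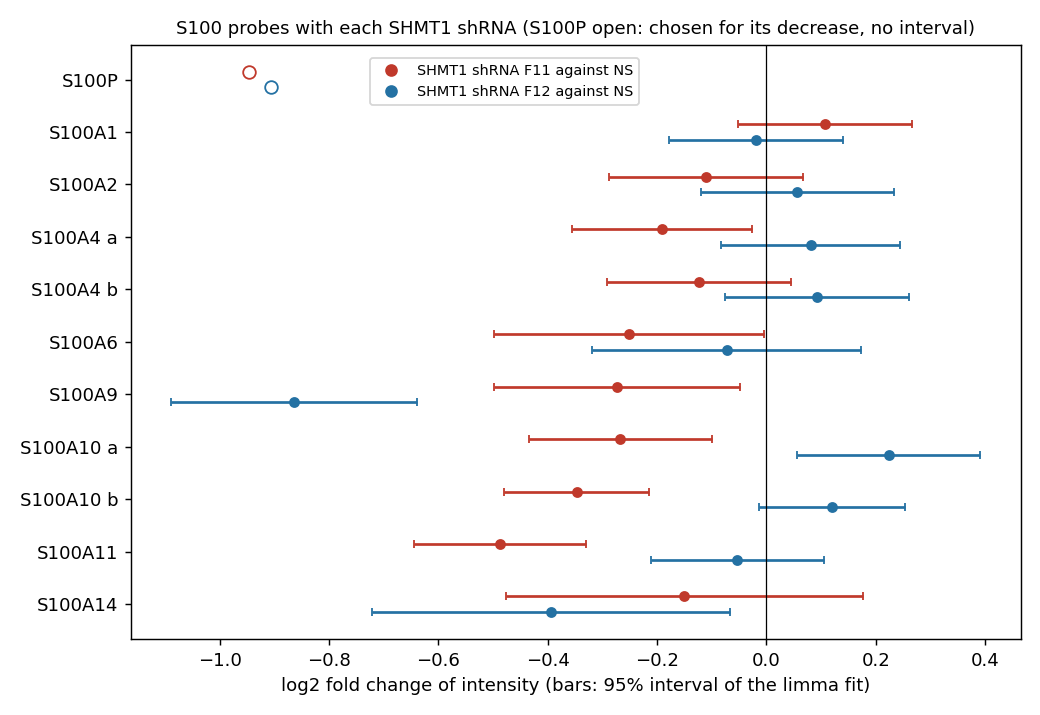
Log2 fold change of intensity against NS (horizontal axis) for the 11 tested S100 probes (rows), with F11 in red and F12 in blue; bars are 95% intervals from the limma fit, and S100P is drawn open with no interval because it was chosen for its decrease. S100A9 lies at -0.86 with F12, and S100A11 at -0.49 with F11 and -0.05 with F12.

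The other members had no call in any of the 4 comparisons. S100A14, an epithelial member, read 196 and 208 with NS, 215 and 154 with F11, and 156 and 151 with F12. The F11 arrays lay on either side of the NS arrays, and both F12 arrays lay below NS. Its log2 fold change with F12 was -0.39 (95% interval -0.72 to -0.07, adjusted p = 0.347), and it passed (adjusted p = 0.0303) when only NS and F12 were fitted, which keeps the spread between the F11 arrays out of the error. Without F11 replicate 1 it passed with F11 as well, at -0.39 (adjusted p = 0.0419), and in the average, at -0.39 (adjusted p = 0.0269), so its value turns on which F11 array is kept.

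S100A6, or calcyclin, which binds CACYBP and rises in dividing cells, read 2820 and 3082 with NS, 2245 and 2732 with F11, and 2955 and 2659 with F12. Both F11 arrays lay below both NS arrays, but the F12 arrays overlapped with each of these groups, so no group stood clear of both others. Its log2 fold changes were -0.25 with F11 (95% interval -0.50 to -0.01, adjusted p = 0.316) and -0.07 with F12 (95% interval -0.32 to 0.17, adjusted p = 0.861). S100A4, known for its binding to non-muscle myosin and as a marker of migrating mesenchymal cells, ran from 153 to 177 with F11, 182 to 187 with NS and 189 to 200.4 with F12 over its 2 probes. The order of the groups was the same at both probes, but none of the differences passed, the nearest being F12 over F11 by 0.27 (95% interval 0.11 to 0.44, adjusted p = 0.0741). That difference passed without F11 replicate 2 (0.36, adjusted p = 0.0231).

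S100A1, best known from heart and skeletal muscle, read 322 and 306 with NS, 352 and 325 with F11, and 320 and 301 with F12. It was the only member tested with a positive log2 fold change with F11, 0.11 (95% interval -0.05 to 0.27, adjusted p = 0.549). S100A2, a protein of basal epithelium, was close to background, between 95.2 and 112 on all arrays. Its log2 fold change was -0.11 with F11 and 0.06 with F12 (adjusted p = 0.585 and 0.846). For both genes the NS and F12 arrays overlapped.

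**Figure D3:**
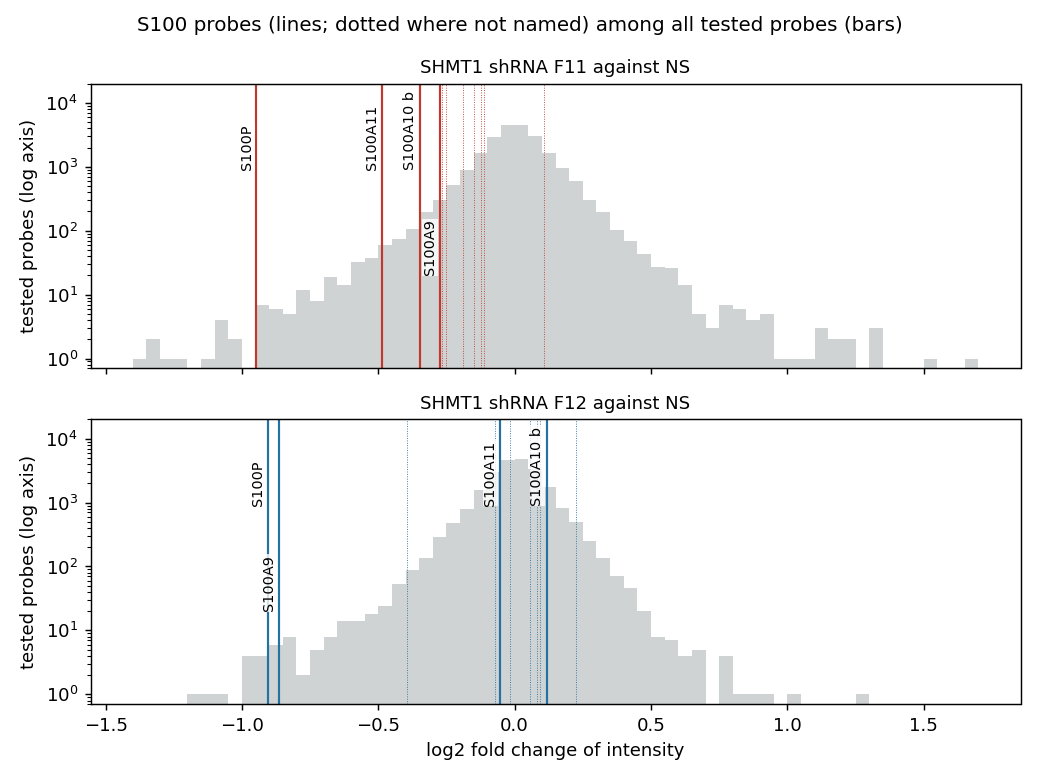
Number of tested probes (vertical log axis) by log2 fold change of intensity (horizontal axis) with F11 (upper panel) and F12 (lower panel) against NS; grey bars are all 23039 tested probes and lines are the S100 probes, named for S100P, S100A9, S100A11 and the brighter S100A10 probe. S100P lies at -0.95 and -0.91, S100A9 at -0.27 and -0.86, and S100A11 at -0.49 and -0.05 in the upper and lower panels.

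Over the 8 tested member genes other than S100P, at the brightest probe of each, the median log2 fold change was -0.20 with F11, with 7 below 0, and -0.04 with F12, with 5 below 0. The median of all tested probes was 0.00 in both comparisons, and 49.5% and 48.5% of them lay below 0. A lean below 0 with F11 was not confined to these members. Among the lists described below, 13 of 17 intracellular partners (median -0.08) and 12 of 17 other EF-hand genes (median -0.10) were negative with F11. So were 4 of 4 other S100 genes (median -0.09) and 1 of 3 receptors (median 0.06). Between F12 and F11 the median of the 8 genes was 0.17, with 5 above 0. For all tested probes it was 0.00, with 48.8% below 0. The lists leaned upward here too, with 14 of 17 partners (median 0.11) and 15 of 17 other EF-hand genes (median 0.08) above 0. Among the epithelial markers 7 of 8 were above 0 (median 0.20), and among the receptors 1 of 3 (median -0.02). Both comparisons with NS share the NS arrays.

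The rest of the family was read the same way. Of the 11 other S100 genes 4 were tested (S100A3, S100A5, S100A13 and S100A16), and the others, among them the skin genes S100A7 and S100A7A and the glial S100B, were not above background on 2 or more arrays. None of the 4 was called against NS at its brightest probe. S100A13, which is needed for the release of FGF1 without a signal peptide, has 6 tested probes. The brightest read 1447 and 1425 with NS, 1205 and 1361 with F11, and 1638 and 1598 with F12, with no overlap between groups. S100A13 was higher there with F12 than with F11 by 0.34 (adjusted p = 0.0389 from limma), a call lost when any single array other than F11 replicate 2 was left out (adjusted p from 0.0756 to 0.232) and under normexp, the intensity trend and a fit of only F11 and F12.

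A dimmer S100A13 probe (ILMN_1814799) read 405 and 421 with NS, 288 and 310 with F11, and 418 and 399 with F12. There S100A13 fell with F11 (-0.47, adjusted p = 0.0133) and was higher with F12 than F11 (0.45, adjusted p = 0.00952), with F11 the lowest group, as for S100A11. Dropping any NS or F12 array ended the F11 call (adjusted p from 0.0525 to 0.112), and dropping either F12 array ended the difference (0.0740 to 0.107). The 4 other S100A13 probes were called in no comparison. All 6 had a negative log2 fold change with F11 and a positive difference between F12 and F11, from 0.02 to 0.45. Counted at the brightest probe of each gene, 12 tested S100 genes other than S100P held 2 calls lower with F11 and 1 lower with F12. With F12 against F11 they held 3 higher and 1 lower. The F11 call of the dimmer S100A13 probe is not in this count. By probe rather than gene, 1.35% of all tested probes were called lower with F11 and 0.404% lower with F12. Between F12 and F11, 2.79% were called higher and 3.05% lower.

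**Figure D4:**
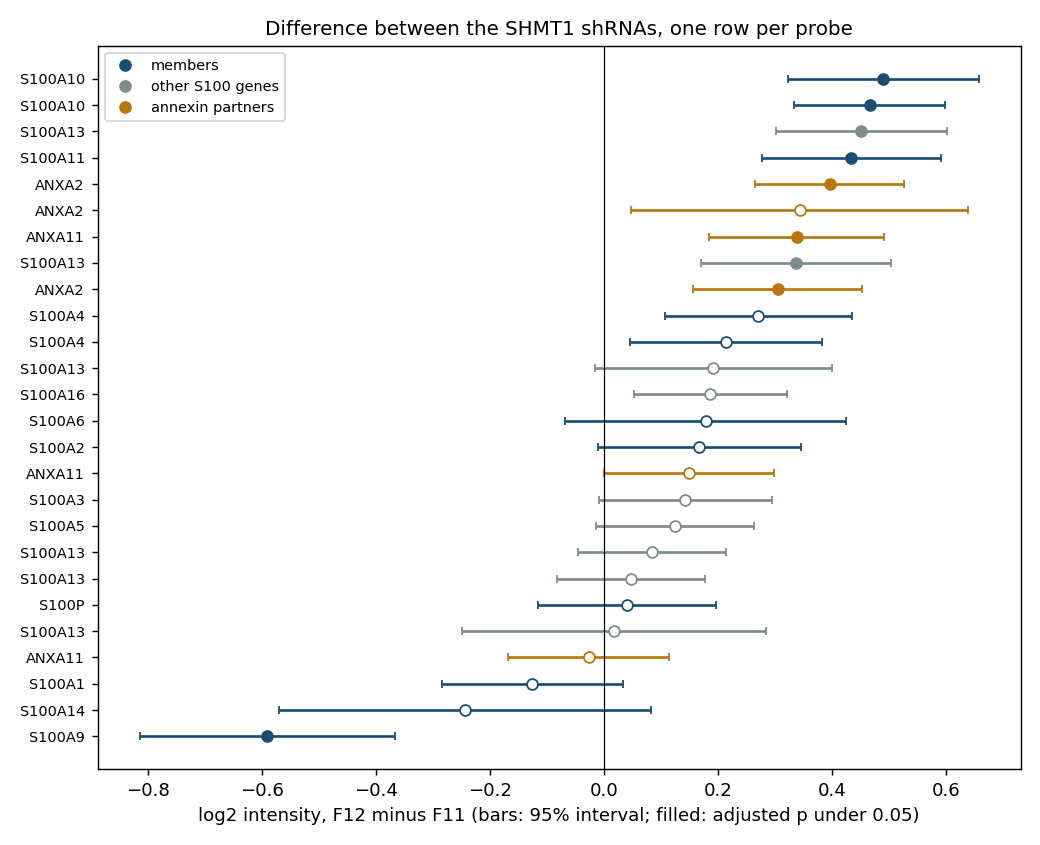
Difference in log2 intensity between F12 and F11 (horizontal axis) for each tested probe of the S100 members (dark blue), the other S100 genes (grey) and the annexin genes ANXA2 and ANXA11 (brown); bars are 95% intervals from the limma fit and filled points have an adjusted p under 0.05. S100A9 is alone among the called probes on the negative side, at -0.59, and S100A10, S100A11, S100A13, ANXA2 and ANXA11 have called probes between 0.30 and 0.49. The S100P row is a description, since the gene was chosen for its fall with both shRNAs.

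Partners of the family were taken as a list. None of the 17 measured intracellular partners was called against NS by limma, where 3 had an unadjusted p under 0.05 with F11 and 3 with F12, and 2, ANXA2 and ANXA11, were higher with F12 than with F11. ANXA2, the annexin that S100A10 binds, read 8805 and 8081 with NS, 7199 and 7104 with F11, and 8980 and 8691 with F12 at its brightest probe. As for S100A10, both F11 arrays lay below all others, but here the NS and F12 arrays overlapped. The difference between the shRNAs was 0.30 (95% interval 0.16 to 0.45, adjusted p = 0.0373 from limma), and 0.40 (adjusted p = 0.00917) at a dimmer probe, and both were lost without F12 replicate 1 or F12 replicate 2. At the brightest probe the call was also lost without F11 replicate 1 or F11 replicate 2 and after the normexp correction. Another ANXA2 probe had a difference of 0.34 (adjusted p = 0.180). ANXA11, which binds S100A6, was higher with F12 by 0.34 at its brightest probe (adjusted p = 0.0299 from limma). That call was lost when any single array other than F11 replicate 2 was left out, after normexp and with only F11 and F12 fitted. At the dimmer ANXA11 probes the difference was 0.15 and -0.03 (adjusted p = 0.249 and 0.875 from limma). AHNAK, a giant scaffold held by the S100A10 and annexin A2 complex, read 2287 and 1956 with NS, 1678 and 1556 with F11, and 2120 and 2059 with F12. Its log2 fold change with F11 was -0.39 (95% interval -0.59 to -0.19, adjusted p = 0.0689) and missed the threshold.

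Of the 6 receptor genes, 3 were tested and none was called against NS by limma (unadjusted p under 0.05 for 2 with F11 and 0 with F12). AGER, which encodes RAGE, was at most 99.1 at its brighter probe and had log2 fold changes of 0.06 with F11 and 0.03 with F12 (adjusted p = 0.765 and 0.900). BSG, or basigin, bound by S100A9, had log2 fold changes of 0.25 and 0.12 (adjusted p = 0.203 and 0.661). ALCAM, a cell adhesion molecule that binds S100B, was higher with F12 than with F11 by 1.00 (adjusted p = 0.0333), with intensities of 1161 and 719 with F11 and 1888 and 1776 with F12. That call was lost when any single NS or F12 array was left out. TLR4 was not above background on 2 or more arrays. Of 17 other genes with EF-hands, such as those of calpains and reticulocalbins, none was called against NS by limma (unadjusted p under 0.05 for 7 with F11 and 3 with F12), and RCN2 alone was higher with F12 than F11 (0.36, adjusted p = 0.0189, lost without F11 replicate 1 or either F12 array and after normexp).

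Neighbouring genes were read as a group. Between the outermost S100A members on chromosome 1 RefSeq places 47 other protein-coding genes, most of them genes of skin barrier proteins. Of these, 6 were tested and none was called in any comparison in limma, where 1 (FLG, with F12) had an unadjusted p under 0.05, with log2 fold changes from -0.05 to 0.08 with F11 and from -0.07 to 0.19 with F12. On chromosome 4, the genes on either side of S100P, MRFAP1L1 and MRFAP1L2, had log2 fold changes of -0.01 and 0.14 with F11 (adjusted p = 0.988 and 0.339) and 0.06 and 0.10 with F12 (adjusted p = 0.868 and 0.617).

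To see which genes ran most like S100P, the log2 values of each probe were centred over the 6 arrays and set against those of S100P. The smallest root mean square differences, over these 6 arrays, were those of CAMK2N1, an inhibitor of CaM kinase II (0.0482), the transcription factor TFAP2A, the retinoid-responsive gene RARRES1, the antimicrobial peptide DEFB1 and the early response gene IER3. Each gene is given here by the 1 probe that ran closest to S100P. All 5 of these probes had 4 SHMT1 shRNA arrays below both NS arrays, as had 6.94% of tested probes. CAMK2N1, for instance, read 504 and 511 with NS, 267 and 261 with F11, and 283 and 275 with F12. The nearest member of the family was S100A9, at 0.317, which ranked it 180 of the tested probes. S100A14 came at 0.348 and S100A11 at 0.358. This likeness is a description over 6 arrays chosen for the pattern and carries no test.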

How the data were processed

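Per the paper's methods, total RNA was labelled with the Ambion MessageAmp kit and hybridized to Illumina HumanHT-12 V4.0 BeadChips, and the scans were processed in GenomeStudio, log2-transformed and quantile-normalized in lumi (version not stated). What the authors deposited is a linear normalized intensity for each probe on each array. Background correction is not stated. A table of non-normalized signals has 12 value columns with names that fit none of the samples, and was left aside. Arrays were grouped by sample title. The log2 of these values was taken and nothing else was normalized.

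The background was taken as the mode of all values, with the values below it mirrored above, and its 95th percentile was the limit. Probes over it on at least 2 arrays were fitted in limma 3.58.1 (R 4.3.3; lmFit, eBayes) with 3 groups sharing 1 spread (3 residual and 4.27 prior degrees of freedom). P-values are two-sided, Benjamini-Hochberg adjusted over 23039 probes, with a threshold of 0.05. Probes were named from the platform annotation, with symbols updated by gene ID through RefSeq. Promoter motifs were searched in Python 3.11.15. The fit was tested on simulated data. All probes of the members are given. Of each list the genes that passed in any comparison, up to 6, were named, and the 5 probes most like S100P. AGER, BSG, AHNAK, MRFAP1L1 and MRFAP1L2 were named for their role or place, after their values were seen. The members and lists were chosen with earlier results of these data known. Alternatives were no filter, a filter on all 6 arrays, a replicate block, normexp (offset 16), an intensity trend with robust estimation, only the compared groups, centring on array medians, and each array left out. The number of arrays limits the precision.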

Additional observations from a re-analysis of the deposited data

Results flagged for a closer look

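Changes of 3 S100 genes against NS differed between the shRNAs by the test of F12 against F11 itself. S100A9 differed by -0.59 on the log2 scale (adjusted p = 0.0163 from limma), with a lower signal on both F12 arrays than on both F11 arrays. S100A10 differed by 0.49 at its dimmer probe (adjusted p = 0.0107) and by 0.47 at its brighter probe (adjusted p = 0.00527), with higher signals on both F12 arrays. S100A11 differed by 0.43 (adjusted p = 0.0135), again with higher signals on both F12 arrays. The groups hold 2 arrays each, too few for a search for single outlying arrays.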

How the results depend on the processing

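Deviations of same-numbered arrays correlated at 0.455 for NS and F11, -0.291 for NS and F12 and -0.31 for F11 and F12. The signs differ, so the replicate numbers did not mark the same shift in all 3 groups. The replicate block assumes such a shift, so it cannot settle whether the arrays were paired in some other way. With the replicate block, S100 probes called went from 1 to 0 in the average and from 2 to 1 with F11, and stayed at 1 with F12 and 4 for F12 against F11. The S100 calls that the block ended were S100A9 in the average (adjusted p = 0.0556) and the brighter S100A10 probe with F11 (adjusted p = 0.0535). It also ended the calls of the brightest S100A13 probe for F12 against F11, of CD14 and MUC16 with F12 and of KRT7 in the average. With only the compared groups they were 0 in the average, 0 with F11 and 2 with F12, the second being S100A14, and normexp left 1 with F11. No filter, the filter on all 6 arrays and the intensity trend changed none of these counts, and centring changed no value. Leaving out 1 array gave 0 to 2 calls in the average, 0 to 2 with F11, 0 to 2 with F12 and 0 to 6 for F12 against F11. The averaged SHMT1 change ranged from -0.61 to -0.49 and missed the threshold when any NS or F12 array was dropped (adjusted p of 0.173 to 0.291). In these fits the lone array is assumed to vary like the other groups. Over all tested probes the averaged calls went from 107 to 12 with F11 and F12 as 1 group and to 204 with the intensity trend, and ranged from 1 to 248 with 1 array left out. Normexp took the averaged S100P change from -0.93 to -1.66.

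With 1 array left out, 8 values that were not called changed sign. The ranges were -0.018 to 0.0997 for S100P between F12 and F11, -0.062 to 0.025 for S100A1 with F12, -0.12 to 0.066 for S100A2 in the average and -0.036 to 0.15 with F12, -0.056 to 0.025 for the second S100A4 probe (ILMN_1688780) in the average, -0.15 to 0.0032 for S100A6 with F12, -0.079 to 0.035 for the dimmer S100A10 probe in the average, and -0.39 to 0.091 for S100A14 with F11. The causes were not tested. Signals near background limit what can be read for S100P under the SHMT1 shRNAs, S100A2 and S100A8.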
